A study of Mus musculus with 24 samples.

Results

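Group 7 is the set of haematopoietic stem cells (HSCs) that carry the number 7 in the column "map" of the deposited index-sort record. It holds 86 of 1430 recorded cells. The cells were chosen by that number alone, joined by well to the table of unique molecular identifier (UMI) counts, and set against 1334 other recorded cells, with the 10 cells of map number 1 left out. Comparisons were also made with the 902 cells of groups 2 to 6 and with the 330 cells of group 4. The meaning of the number is not stated in the sources used here. If it was made from the same UMIs or from the sort values, the gene and channel comparisons below are not independent of it, and they are therefore given as a description of the group.

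HSCs are rare bone marrow cells that sustain all blood lineages and spend most of their time outside the cell cycle. When they enter it, genes of DNA replication rise in S phase, histone genes rise with DNA synthesis, and genes of mitosis rise in G2 and M. Replication-dependent histone mRNAs have no poly(A) tail as a rule, so a library primed with poly(T), as this one was, captures only some of them.

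All cells came from mice of the strain -60/DR5-TA-RA-CFP, a reporter line in which cyan fluorescent protein (CFP) is switched on through retinoic acid response elements. They were sorted as lineage-negative, Sca-1 and Kit positive (LSK), CD150+ and CD48-, with CFP status mixed, and no treatment or age is labelled. All compared groups share this genotype and this gate. The series title names cell-cycle status as the study's theme. The labels list 8 single-cell samples, but wells could not be assigned to them, so the table is a pool in which the 4 sort plates (2, 3, 4 and 5) stood as technical replicates. SDs and sign-flip p-values measure the spread between plates. The SEs and p-values of edgeR rest mainly on a spread pooled over genes, and little on each gene's own spread between plates. Poisson and binomial intervals cover counting error only. None of these says anything of the spread between mice.

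Group 7 held 96894 UMIs in all, namely 55537 in plate 2, 13909 in plate 3, 6979 in plate 4 and 20469 in plate 5. The other cells held 424688 to 536303 UMIs per plate. A single UMI in the plate 4 library of group 7 equals 143.3 UMIs per 1000000 (CPM), so low genes could not be measured there. Plate 2 stood apart from the other plates in both sets of cells: 67 of 2198 well-counted genes were over 4-fold lower in it, against 0 in each of the other plates. These 67 genes held 0.562% of group 7's UMIs and 0.583% of the other cells' UMIs in plate 2, and 5.23% to 5.84% in plates 3, 4 and 5. They include Eef1a1, Ifitm1 and Ly6e. The tests therefore had plate as a block and compared cells within a plate.

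Group 7 was spread unevenly over the plates. It made up 14.6% of the recorded cells in plate 2 (52 of 356; exact binomial 95% interval 11.1% to 18.7%), 3.19% in plate 3 (11 of 345; 1.60% to 5.63%), 1.94% in plate 4 (7 of 361; 0.783% to 3.95%) and 4.35% in plate 5 (16 of 368; 2.51% to 6.97%). The interval of plate 2 lay above those of the other plates, and these intervals cover counting error only. Plate 2 thus gave most of the group's cells, and whether the plate's own low genes entered the numbering was not tested. The 52 cells of plate 2 fell in odd and even plate columns alike, 27 and 25.

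**Figure D1:**
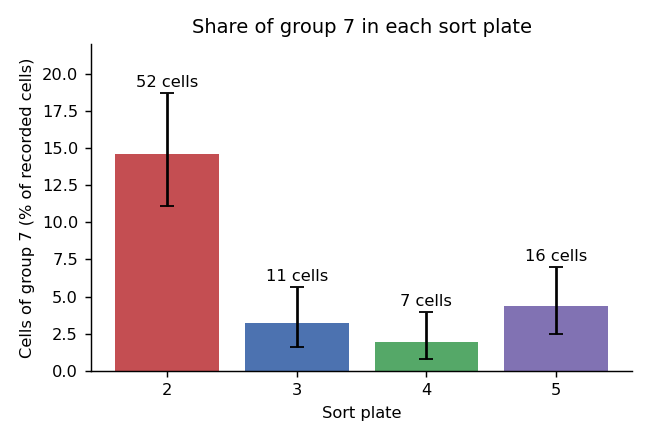
Cells of group 7 as a percent of all recorded cells, by sort plate; bars are shares with exact binomial 95% intervals, and the cell number stands above each bar. Plate 2 (52 cells, 14.6%) lies above plates 3, 4 and 5 (1.94% to 4.35%).

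By CFP fluorescence, ranked within a plate, group 7 held 15 of the 288 brightest cells (5.21%; exact 95% interval 2.94% to 8.45%), 51 of 857 intermediate cells (5.95%; 4.46% to 7.75%) and 20 of the 285 dimmest cells (7.02%; 4.34% to 10.6%). The 3 intervals overlap.

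The label of HSC was checked against marker genes. All 12 HSC markers examined had UMIs in group 7, from 2 UMIs for Slamf1, which encodes CD150, to 95 for Ifitm1 and 94 for Pdzk1ip1. Their summed level was 1927 to 4543 CPM over plates in group 7 and 1804 to 4235 CPM in the other cells, so the ranges overlap. Cd48, the gene of the excluded surface marker, had 0 UMIs in group 7, which allows up to 3. The other cells together held only 1 UMI of Cd48, so this 0 does not set the group apart. Of 6 multipotent progenitor markers 5 were seen (96 UMIs). Their summed level was 719 to 1044 CPM over plates in group 7 and 716 to 1001 CPM in the other cells. Of the 9 erythroid markers in the table, 7 were seen, with 222 of 300 UMIs from Car2, and Klf1 and Gata1 were at 0. Of 8 markers of mature neutrophils and monocytes 3 were seen, with S100a8, S100a9, Lcn2, Camp and Ly6c2 at 0. Of 6 B cell markers only Cd79b was seen, of 6 T and NK cell markers only Nkg7 (2 UMIs, with Cd3e at 0), and all 6 mast cell and basophil markers were at 0. Megakaryocyte markers were seen for 8 of 11 (84 UMIs), myeloid progenitor markers for 5 of 7 (266 UMIs, of which Prtn3 gave 135 and Calr 120) and dendritic cell markers for 5 of 6 (51 UMIs, with Siglech at 0). The summed levels over plates were 648 to 1417 CPM in group 7 against 697 to 1040 CPM in the other cells for megakaryocyte markers, 1719 to 2881 against 1892 to 2555 CPM for myeloid progenitor markers and 378 to 879 against 669 to 742 CPM for dendritic cell markers. They were 2931 to 3582 CPM against 2896 to 3899 CPM in the other cells for the erythroid markers, and 162 to 716 CPM against 130 to 488 CPM for the neutrophil and monocyte markers.

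The genes that stood out against all other cells were histone genes, and they were lower in group 7. Hist1h1a, Hist1h1b and Hist1h1d encode linker histones, which bind the DNA between nucleosomes, and Hist1h2ae encodes a core histone of the H2A class. Replication-dependent histone promoters are known for a short AAACACA element in H1 genes and for CCAAT boxes, so the 130 bases before each start are shown (RefSeq, GRCm38.p6, 5′ to 3′ on the gene's strand), with AAACACA and CCAAT, on either strand, in capitals.
Hist1h1b (RefSeq H1f5), chr13:21780626-21780755, minus strand: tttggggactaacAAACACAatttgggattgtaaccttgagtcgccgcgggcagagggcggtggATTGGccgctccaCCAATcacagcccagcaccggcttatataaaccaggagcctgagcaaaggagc
Hist1h1d (RefSeq H1f3), chr13:23554902-23555031, plus strand: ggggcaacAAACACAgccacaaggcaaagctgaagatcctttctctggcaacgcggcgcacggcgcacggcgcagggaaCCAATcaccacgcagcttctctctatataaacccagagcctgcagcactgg
Hist1h1a (RefSeq H1f1), chr13:23763538-23763667, plus strand: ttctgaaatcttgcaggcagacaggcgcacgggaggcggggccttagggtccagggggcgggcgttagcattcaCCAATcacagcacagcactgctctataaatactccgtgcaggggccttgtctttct
Hist1h2ae (RefSeq H2ac8), chr13:23571221-23571350, minus strand: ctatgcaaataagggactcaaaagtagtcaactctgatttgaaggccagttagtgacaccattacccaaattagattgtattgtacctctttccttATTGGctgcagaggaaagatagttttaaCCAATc
CCAAT was present in all 4 windows and AAACACA in those of Hist1h1b and Hist1h1d. Of 32851 promoters in the table, 22.4% hold CCAAT and 2.98% hold AAACACA in the same window. A match describes letters and is not evidence of a bound site.

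Hist1h1b was measured at 90.0, 144, 430 and 97.7 CPM in group 7 of plates 2 to 5 in order, and at 494, 288, 508 and 839 CPM in the other cells. Group 7 was lower in each plate, although its plate 4 value lies above the other cells' plate 3 value. The 12 UMIs stand against 52.2 expected from the other cells of the same plates (ratio 0.230; exact Poisson 95% interval 0.119 to 0.402), with an adjusted p of 0.000288 (edgeR quasi-likelihood test, Benjamini-Hochberg).

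Hist1h2ae had 1 UMI in group 7, in plate 5, against 22.1 expected (ratio 0.0453; interval 0.00115 to 0.252; adjusted p = 0.000288). Hist1h1d had 2 UMIs, both in plate 2, against 23.8 expected (ratio 0.0841; interval 0.0102 to 0.304; adjusted p = 0.000675). Hist1h1a had 3 UMIs, in plates 2, 4 and 5, against 21.4 expected (ratio 0.140; interval 0.0289 to 0.409; adjusted p = 0.0132). All 3 were lower in group 7 in each plate, but group 7's levels rest on single UMIs.

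The fifth called gene was Pcbp1, which encodes a poly(C)-binding protein that acts on RNA. It was at 360, 288, 143 and 97.7 CPM in group 7 of plates 2 to 5 and at 608, 549, 567 and 716 CPM in the other cells, with no overlap. The 27 UMIs stand against 59.98 expected, a log2 fold change of -1.52 ± 0.354 (SE; adjusted p = 0.0204), or -1.23 relative to the median of all genes.

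These 5 genes were the whole set of calls among 5957 genes tested (0.0839%), all lower in group 7 and 0 higher, with 462 genes at an unadjusted p under 0.05. The median fold change of all genes was -0.29 on the log2 scale with the TMM scaling and -0.05 with library totals, so fold changes are read against it. The call count was 0 with DESeq2, 0 with no plate block, 0 with cells thinned to 500 UMIs, 0 without plate 2 and 0 without plate 5. Without plate 2 the adjusted p was 0.176 for Hist1h1b, 0.0844 for Hist1h2ae, 0.0686 for Hist1h1d and Pcbp1, and 0.563 for Hist1h1a, and all 5 remained lower.

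**Figure D2:**
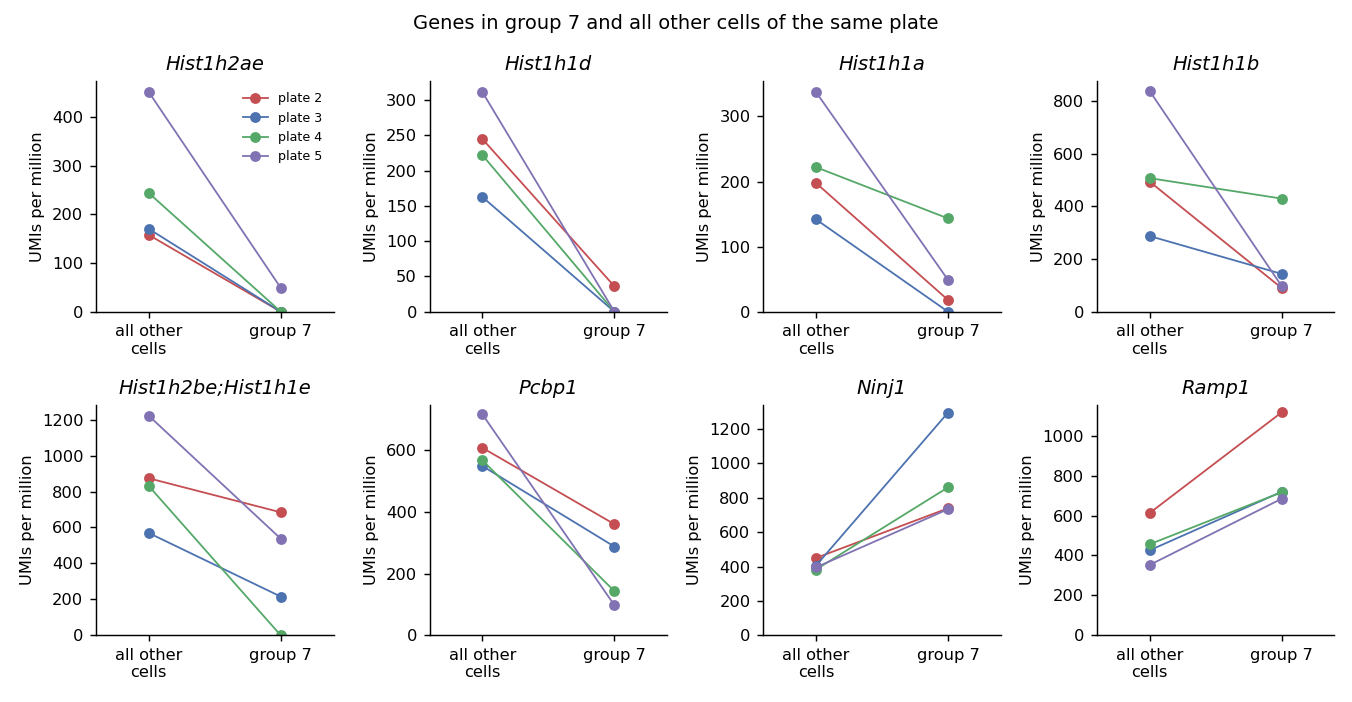
Levels of 8 genes, in CPM of the summed UMIs, in all other cells (left) and in group 7 (right); each line joins the 2 sets of a plate. The histone genes and Pcbp1 fall from left to right in every plate, and Ninj1 and Ramp1 rise in every plate.

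The low histone values set group 7 apart from groups 9 and 10 more than from the rest. Hist1h1b averaged 190 ± 161 CPM (SD, n = 4 plates) in group 7, within the span of groups 2 to 6, whose means ran from 113 ± 89.3 in group 3 to 223 ± 188 in group 6. It averaged 299 ± 185 CPM in group 8, 1496 ± 1287 in group 10 and 1505 ± 783 in group 9. Hist1h2ae and Hist1h1d had their lowest mean in group 7, at 12.2 ± 24.4 and 9.003 ± 18.0 CPM, but their plate values overlap with those of the next groups, at 46.2 ± 32.8 CPM in group 2 and 57.1 ± 114 CPM in group 6. Pcbp1 had its lowest mean in group 7 as well, at 222 ± 123 CPM. The next was 465 ± 102 CPM in group 10, and groups 2 to 6 ran from 502 ± 108 to 659 ± 62.7 CPM.

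Of the core and linker histone list, 13 of 57 entries in the table could be tested, 4 were called lower, 0 were called higher and all 13 lay below the median of all genes. Their median log2 fold change was -2.11 against -0.29 for all genes. Against groups 2 to 6 only 8 entries could be tested, and against group 4 only 5. Entries with few UMIs in group 7 passed the filter through the other cells. The count below the median and the median itself thus lean towards lower values by selection and are no support by themselves. The whole list made up 0.166%, 0.0431%, 0.0860% and 0.181% of group 7's UMIs in plates 2 to 5 and 0.329%, 0.207%, 0.324% and 0.484% in the other cells. Group 7 was lower in each plate. Against group 4 it was also lower in each plate, at 0.175%, 0.159%, 0.169% and 0.233% there, with 141 UMIs against 178.7 expected. When only genes with at least 200 UMIs were tested with library totals, Hist1h2be;Hist1h1e, an entry that joins a core and a linker histone gene, was called too, with 52 UMIs against 87.2 expected (log2 fold change -0.84 ± 0.221, adjusted p = 0.0425 by edgeR).

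Genes of DNA replication and mitosis were lower in group 7 than in all other cells as lists, with no single member called. Of the S phase list, which holds the MCM helicase genes, Pcna and the deoxynucleotide enzymes, 41 of 48 entries were tested, 0 were called and 37 lay below the median of all genes (median log2 fold change -0.78 against -0.29). Of the G2/M list, which holds mitotic cyclins, kinesins and kinetochore genes, 36 of 55 were tested, 0 were called and 34 lay below it (median -1.46). Against groups 2 to 6 only 23 S phase and 12 G2/M entries could be tested. Entries that passed the filter through the other cells lean these counts and medians towards lower values, so they are no support by themselves. The shares of UMIs below take the whole lists, without that filter. Mki67, a marker of cycling cells, had 1 UMI in group 7 against 4.62 expected. S phase genes made up 0.412%, 0.475%, 0.401% and 0.557% of UMIs in plates 2 to 5, against 0.639%, 0.647%, 0.679% and 0.716% in the other cells, and the sets do not overlap. G2/M genes made up 0.171%, 0.331%, 0.258% and 0.195% against 0.373%, 0.416%, 0.484% and 0.516%, again without overlap. This separation was not seen with cells thinned to 500 UMIs in a single random draw, which weights all cells equally and leaves fewer UMIs. S phase genes then differed by -0.0968 ± 0.0902 percentage points (exact sign-flip permutation test, p = 0.25). G2/M genes differed by -0.0623 ± 0.122 (p = 0.375, same exact test). Each list was lower in 3 of 4 plates, with ranges that overlap. Whether depth, the weighting of cells or the draw itself gave this change was not tested.

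In the same thinned cells, S and G2/M genes together made up 0.745% ± 0.197 of UMIs in group 7 and 0.904% ± 0.0783 in the other cells (SD, n = 4 plates). Group 7 was lower in 4 of 4 plates, by 0.159 ± 0.124 percentage points (exact two-sided sign-flip permutation test, p of 1 in 8, the smallest that 4 plates allow). The direction turned against groups 2 to 6: group 7 was higher by 0.163 ± 0.165 percentage points, in 3 of 4 plates. The cells of group 7 ran from 0% to 2.40% with a median of 0.600%, equal to the medians of all other cells and of group 4 and below the medians of 1.80% in group 9 and 2.20% in group 10.

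**Figure D3:**
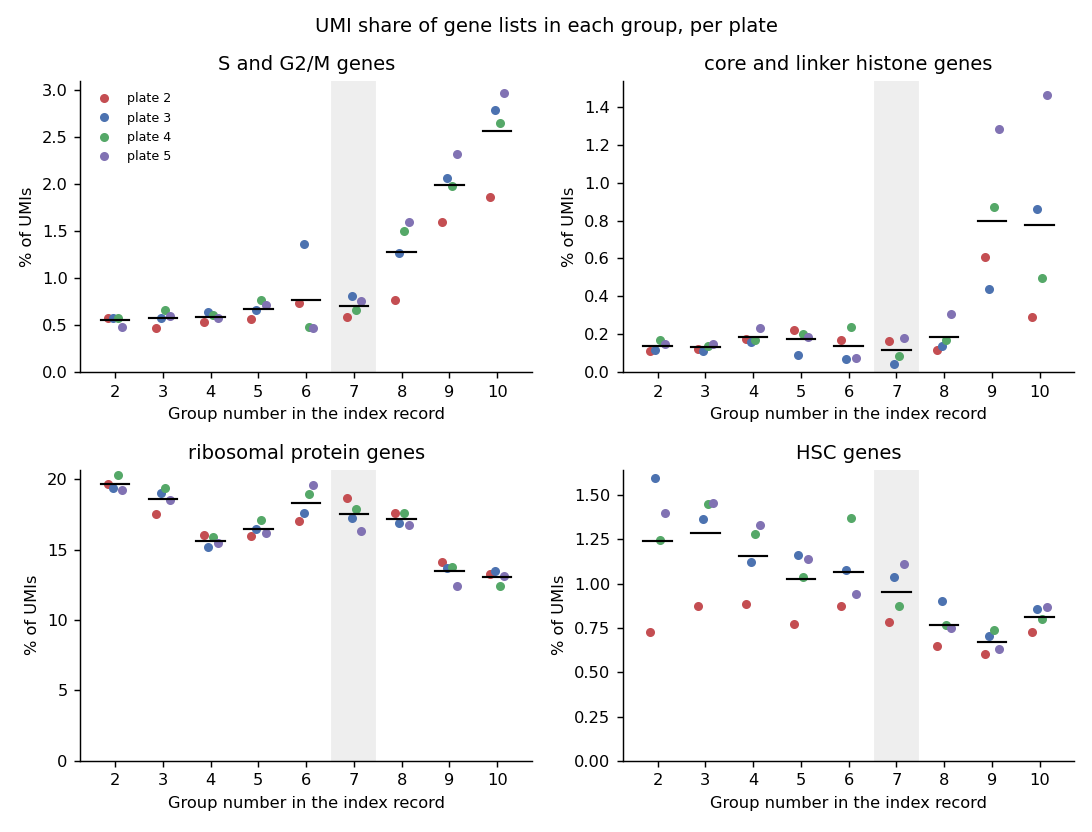
Share of UMIs from 4 gene lists in each group of the index record; points are sort plates, lines are means over 4 plates, and group 7 is shaded. Group 7 lies near groups 2 to 6 for S and G2/M genes and for histone genes, and groups 9 and 10 lie above it.

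Unlike the histone genes, S phase genes were higher in group 7 than in group 4, the largest group. They made up 0.320%, 0.375%, 0.365% and 0.365% of UMIs in group 4 of plates 2 to 5, and group 7 was higher in each plate, with 437 UMIs against 330.2 expected. The difference was 0.105 ± 0.0645 percentage points, or 0.128 ± 0.0941 after thinning, also in 4 of 4 plates. The mean share of S phase genes was 0.461% ± 0.0715 in group 7, near 0.449% ± 0.0761 in group 5 and 0.453% ± 0.158 in group 6. This list thus set group 7 apart from group 4 and not from groups 5 and 6. Lig1, the DNA ligase that seals nicks left by replication, led this list at 288, 288, 287 and 293 CPM in group 7, against 96.8, 72.1, 91.5 and 115 CPM in group 4. Its 28 UMIs stand against 9.37 expected, but the adjusted p was 0.459 (edgeR). Across groups Lig1 averaged 289 CPM in group 7, 464 ± 229 in group 8 and 700 ± 158 in group 9, 93.9 to 194 CPM in groups 2 to 6, and 167 ± 85.6 CPM in group 10. G2/M genes did not follow, with 199 UMIs against 213.3 expected from group 4 and higher values in 2 of 4 plates. Lmnb1;AK079263, which holds the gene of the nuclear envelope protein lamin B1, had 23 UMIs against 9.05 expected from group 4 (adjusted p = 0.676).

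A small set of genes was higher in group 7 than in all other cells, none of them called in the TMM-scaled test. Ninj1, which encodes a membrane protein involved in plasma membrane rupture, was at 738, 1294, 860 and 733 CPM in group 7 of plates 2 to 5 and at 450, 405, 383 and 395 CPM in the other cells, with no overlap. The 80 UMIs stand against 41.4 expected, and the log2 fold change was 0.74 ± 0.284 (adjusted p = 0.470), or 1.01 ± 0.226 with library totals over genes of at least 200 UMIs (adjusted p = 0.00411). Ramp1, which encodes a partner of the calcitonin receptor-like receptor, was at 1116, 719, 716 and 684 CPM against 612, 426, 456 and 352 CPM, again without overlap. Its log2 fold change was 0.53 ± 0.286 (adjusted p = 0.684) and 0.83 ± 0.218 (adjusted p = 0.0430) in the same 2 fits.

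The fit of genes with at least 200 UMIs and library totals, added after the data had been seen, called 9 of 2296 genes (0.392%), 3 higher (0.131%) and 6 lower (0.261%). Of the higher genes with the lowest p in the TMM-scaled test, 3 were seen in 6 or 7 UMIs each (Kctd3, Rgnef;mKIAA1998 and AK008857;BC021953;BC099512), with adjusted p of 0.464 to 0.470.

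Ninj1 also had its highest mean in group 7 when all groups were listed, at 906 ± 265 CPM, followed by group 2 at 518 ± 145 CPM. Ramp1 averaged 809 ± 206 CPM in group 7 and 618 ± 201 CPM in group 3, the next in order. Group 3 held 824, 494, 749 and 405 CPM in plates 2 to 5, below group 7 in plates 2, 3 and 5 and above it in plate 4. The difference between these groups was not tested. Uqcrc1, a core subunit of respiratory complex III, averaged 466 ± 200 CPM in group 7 and 266 ± 53.8 CPM in group 9, the next in order.

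**Figure D4:**
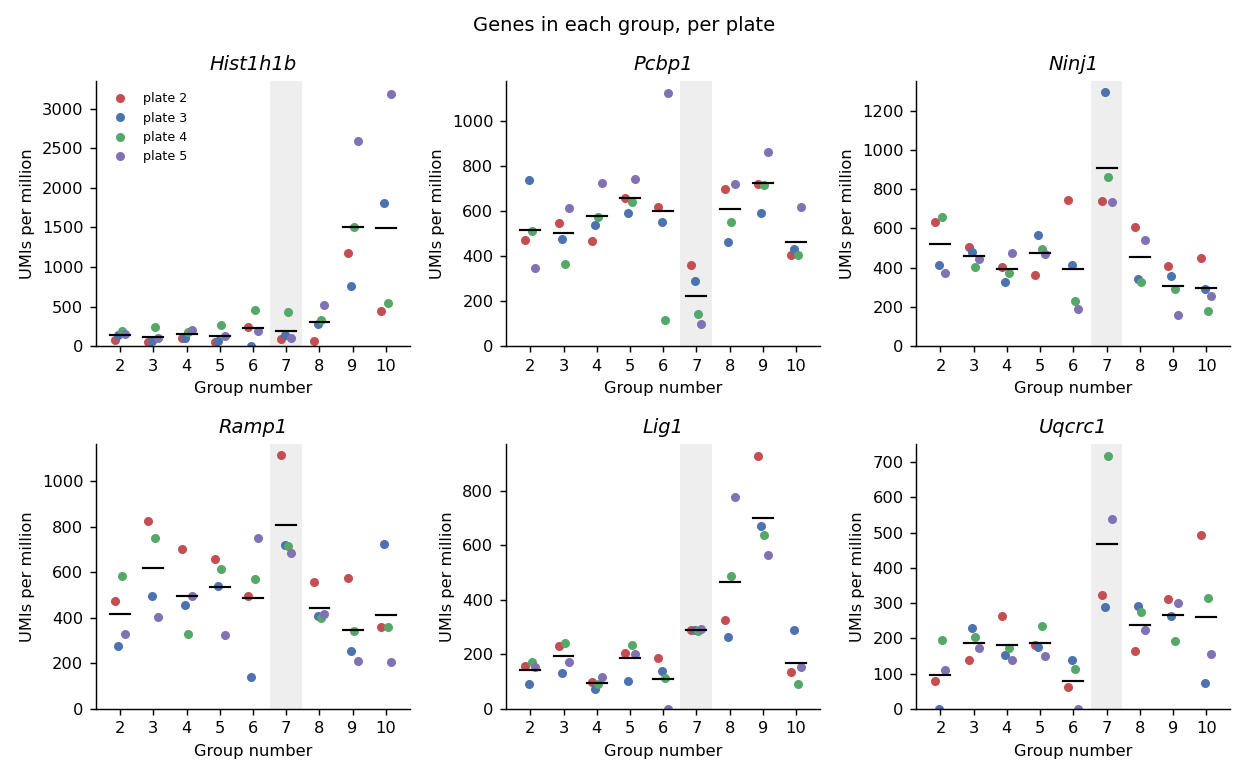
Levels of 6 genes, in CPM, in each group of the index record; points are sort plates, lines are means over 4 plates, and group 7 is shaded. Pcbp1 has its lowest mean, and Ninj1, Ramp1 and Uqcrc1 their highest mean, in group 7, while Hist1h1b and Lig1 peak in groups 9 and 10 or 9 and 8.

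Against groups 2 to 6, which hold a lower share of S and G2/M genes than groups 8 to 10, no gene of 3936 was called by edgeR (0%; 1 call without plate 2), and DESeq2 called 0, while 230 genes had an unadjusted p under 0.05. The lowest p among genes lower in group 7 belonged to Ifitm1, which encodes an interferon-induced membrane protein common in HSCs, at 198, 2732, 1146 and 1856 CPM in group 7 of plates 2 to 5. Groups 2 to 6 held 307, 2955, 3396 and 3290 CPM, so group 7 was lower in each plate (95 UMIs against 149.2 expected; log2 fold change -1.07 ± 0.270, adjusted p = 0.290). It was the single call in the fit of genes with at least 200 UMIs and library totals (log2 fold change -0.67 ± 0.160, adjusted p = 0.0384; 0.0858% of 1165 genes).

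Pcbp1 had 27 UMIs against 54.4 expected from groups 2 to 6 (adjusted p = 0.416), and Ly6e, another interferon-induced surface gene, had 82 against 124.5 (adjusted p = 0.449). Tmem128 and GODZ;Zdhhc3 had 0 UMIs against 9.33 and 8.02 expected (adjusted p 0.501 and 0.524). The exact Poisson intervals of their ratios reached up to 0.395 and 0.460. Both genes were named for their small p among all genes tested, so these intervals give no firm bound on the fold. Of the genes higher in group 7, Uqcrc1 was at 324, 288, 716 and 537 CPM against 206, 164, 196 and 142 CPM, without overlap (adjusted p = 0.713). Ninj1, Itpk1 and Sh2b2 had 80, 17 and 11 UMIs against 43.1, 5.14 and 1.93 expected, with adjusted p of 0.762 to 0.789.

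Against group 4 the TMM-scaled test called 0 of 2690 genes (0%; 0 without plate 2), and DESeq2 called 0, while 165 genes had an unadjusted p under 0.05. The fit of genes with at least 200 UMIs and library totals called 14 of 351 (3.99%), 6 higher (1.71%) and 8 lower (2.28%) in group 7. The 6 higher genes were the ribosomal protein genes Rps20, Rps3 and Rps3a, the antioxidant enzyme gene Gpx1, the complex III subunit gene Uqcr11, and Ninj1. The 8 lower genes were Serpina3f;Serpina3g, which are near-identical protease inhibitor genes that the counting joined, Ubxn1, Apoe, H2-D1, Syf2, Pcbp1, Pfdn5 and Ly6e. Both the gene set and the scaling of this fit were chosen after the data had been seen.

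Serpina3f;Serpina3g was at 684, 359, 860 and 1075 CPM in group 7 and at 1540, 1024, 1143 and 1266 CPM in group 4, lower in each plate (71 UMIs against 133.7 expected; log2 fold change -0.95 ± 0.203, adjusted p = 0.00560 in the added fit, and -1.01 ± 0.259, adjusted p = 0.260 in the TMM-scaled edgeR test). Across groups, group 4 had the highest mean of the Serpina3f and Serpina3g entry, at 1243 ± 221 CPM. Group 7, at 745 ± 302 CPM, lay between group 8 at 727 ± 206 CPM and group 9 at 747 ± 60.4 CPM. Gpx1 was at 3673, 3739, 3869 and 4153 CPM in group 7 against 2904, 2610, 2717 and 2809 CPM in group 4, without overlap. Its log2 fold change was 0.38 ± 0.111 (adjusted p = 0.0396 in the added edgeR fit). The TMM-scaled test gave 0.24 ± 0.181 for Gpx1 (adjusted p = 0.930), and with no filter on low counts the fold change turned to -0.0062. Rps20 was at 7418, 5033, 5015 and 4543 CPM against 4831, 4103, 3567 and 3431 CPM, higher in each plate (0.40 ± 0.0992, adjusted p = 0.0180). Its value in that test was 0.22 ± 0.173 (adjusted p = 0.933), and it turned to -0.0344 with no filter, as Rps3 and Rps3a turned to -0.138 and -0.0542. H2-D1, a classical MHC class I gene counted in an entry with H2-B2, was at 756, 1654, 1290 and 831 CPM against 1329, 1759, 1482 and 1428 CPM, lower in each plate (-0.63 ± 0.178, adjusted p = 0.0361; TMM-scaled test -0.73 ± 0.234, adjusted p = 0.336). The counting could assign reads of such MHC and ribosomal protein genes to near-identical copies, so their values are less certain than those of single-copy genes.

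Ddx6, an RNA helicase of mRNA decay bodies, had 5 UMIs in group 7 against 21.4 expected from group 4 (adjusted p = 0.334), and too few UMIs in all to enter the added fit. Itpk1 and 0910001L09Rik, among the lowest p of the genes higher in group 7, had 17 and 24 UMIs against 3.39 and 7.03 expected (adjusted p 0.529 and 0.509).

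Ribosomal protein genes made up 18.7%, 17.2%, 17.9% and 16.3% of UMIs in group 7 of plates 2 to 5, and 15.6%, 16.0%, 16.6% and 15.8% in the other cells. Group 7 was higher in each plate, although after thinning it was higher in 2 of 4. Against group 4, at 16.0%, 15.1%, 15.9% and 15.4%, it was higher in each plate and after thinning in 3 of 4. Against groups 2 to 6 together it was higher in 3 of 4 plates. After thinning that difference was 0.100 ± 1.49 percentage points, higher in 2 of 4, so this list did not set group 7 apart from them. Of 67 ribosomal protein entries tested against all other cells, 0 were called and 27 lay below the median of all genes. The mean of group 7, 17.5% ± 0.996, lay between those of group 4 (15.6% ± 0.404) and group 2 (19.6% ± 0.470).

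Genes of oxidative phosphorylation made up 2.72%, 2.65%, 3.10% and 2.73% of UMIs in group 7 and 2.51%, 2.46%, 2.66% and 2.38% in group 4, higher in each plate, with 2654 UMIs against 2408 expected. Against all other cells, 2654 stood against 2639 expected and the plates were split 2 to 2. The growth and G1 list, which holds nucleolar and Ran transport genes such as Ncl, had 829 UMIs against 705.8 expected from group 4, higher in 4 of 4 plates, and 886.1 expected from all other cells, higher in 1 of 4. Of 12 entries of that list tested against group 4, 0 were called, as were 0 of 64 of the oxidative phosphorylation list.

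HSC genes were at 0.783%, 1.04%, 0.874% and 1.11% of UMIs in group 7, near the other cells' 0.735%, 1.06%, 1.03% and 1.04%. Groups 2 to 6 held 0.849%, 1.21%, 1.24% and 1.28%, above group 7 in each plate, with 867 UMIs in group 7 against 988.4 expected. The list includes Ifitm1, at 95 UMIs against 149.2 expected, so a large part of this difference came from that 1 gene. Procr, also in the list, went the other way, at 16 against 13.7. After thinning, group 7 was lower by 0.127 ± 0.0468 percentage points, in 4 of 4 plates. Of 22 HSC entries tested against groups 2 to 6, 0 were called, 4 had an unadjusted p under 0.05 and all 4 were lower.

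The single HSC genes that the rule always names mostly lay near their expected counts against all other cells. Of the 27 HSC entries tested there, 0 were called, and 3 had an unadjusted p under 0.05 by edgeR, all lower. Procr, the surface receptor EPCR, had 16 UMIs against 9.37 expected, at 108, 144, 430 and 244 CPM in group 7 and 96.5, 98.4, 93.2 and 97.0 CPM in the other cells (log2 fold change 0.59 ± 0.498, adjusted p = 0.826). The transcription factor gene Hlf had 31 against 33.4, Mecom, another HSC transcription factor gene, had 9 against 9.70, and the entry of Kit, the stem cell factor receptor, had 39 against 37.3. Their adjusted p ran from 0.832 to 0.969. Cd34, a marker of more mature progenitors, had 11 against 14.5 (adjusted p = 0.820), and Ly6a, which encodes Sca-1, had 3 against 4.41 (ratio 0.681; interval 0.140 to 1.99). Slamf1 and Flt3 had 2 UMIs each and were not tested. Against group 4, Hlf was lower in 3 of 4 plates, at 270, 71.9, 287 and 635 CPM against 493, 627, 430 and 610 CPM (adjusted p = 0.542).

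Erythroid genes made up 0.357% to 0.431% of UMIs in group 7 over plates and 0.442% to 0.496% in the other cells, without overlap. After thinning the ranges overlapped, at 0.408% to 0.514% and 0.452% to 0.516%, and group 7 was lower in 3 of 4 plates. Car2, a carbonic anhydrase gene, gave most UMIs of its markers, as noted above. Against group 4 the whole erythroid list stood at 392 UMIs against 499.7 expected, lower in each plate both before and after thinning. This list is wider than the markers and includes Apoe, at 86 UMIs against 123.7 expected from group 4. Part of the difference thus came from Apoe, which the added fit had called lower. MHC class I genes stood at 523 against 610.3 expected and immediate early genes, the first to respond to stimulation, at 125 against 157.4, each lower than group 4 in 4 of 4 plates. None of the tested members of these lists was called in the TMM-scaled test.

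Group 7 had fewer UMIs per cell than the other cells, in 4 of 4 plates by the mean (log2 difference -0.38 ± 0.109, SD, n = 4 plates) and in 3 of 4 by the median. The median cell had 1046.5, 1131, 949 and 1249.5 UMIs in plates 2 to 5, against 1235, 1428.5, 1223.5 and 1248.5. The mean log2 difference of the medians was -0.24 ± 0.167 (SD, n = 4 plates; exact sign-flip permutation test, p = 0.25), and the part of this depth difference in the gene results was not tested apart from the thinned values. The medians differed from those of groups 2 to 6 by -0.09 ± 0.170 (p = 0.375, same exact test). Against group 9, group 7 had fewer UMIs per cell in 4 of 4 plates, with a log2 difference of -1.18 ± 0.218.

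Of 14 index-sort channels, ranked within a plate from 0 to 100, 3 had the same direction in all 4 plates against all other cells. Side scatter, which reflects the granularity of a cell, was lower in group 7: its area had a mean rank of 40.6 ± 6.01 against 50.6 ± 0.174, a difference of -9.91 ± 5.93. Its height differed by -9.75 ± 5.13. CFP had a mean rank of 47.5, 40.6, 27.3 and 48.5 in group 7 of plates 2 to 5, and the differences were -3.04, -9.86, -23.3 and -1.70, with plate 4, where the group holds 7 cells, farthest from 0. Each gave a p of 1 in 8 by the exact two-sided sign-flip permutation test and 0.583 after adjustment over the 14 channels.

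Against groups 2 to 6, side scatter area differed by -2.74 ± 6.65 and CFP by -1.22 ± 10.7, each lower in some plates and higher in others. PE-Cy7 was higher by 5.97 ± 3.99 and DAPI by 5.67 ± 5.82 rank points, each in 4 of 4 plates (exact sign-flip permutation test, p of 1 in 8; adjusted p = 0.875). Against group 4, PE-Cy7 was higher by 8.60 ± 5.21, APC-Alexa Fluor 750 by 9.50 ± 8.36 and DAPI by 8.64 ± 7.91 rank points, each in 4 of 4 plates (exact sign-flip permutation test, p of 1 in 8; adjusted p = 0.438). The record names dyes and no antibody, so these channels cannot be tied to a surface marker here.

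**Figure D5:**
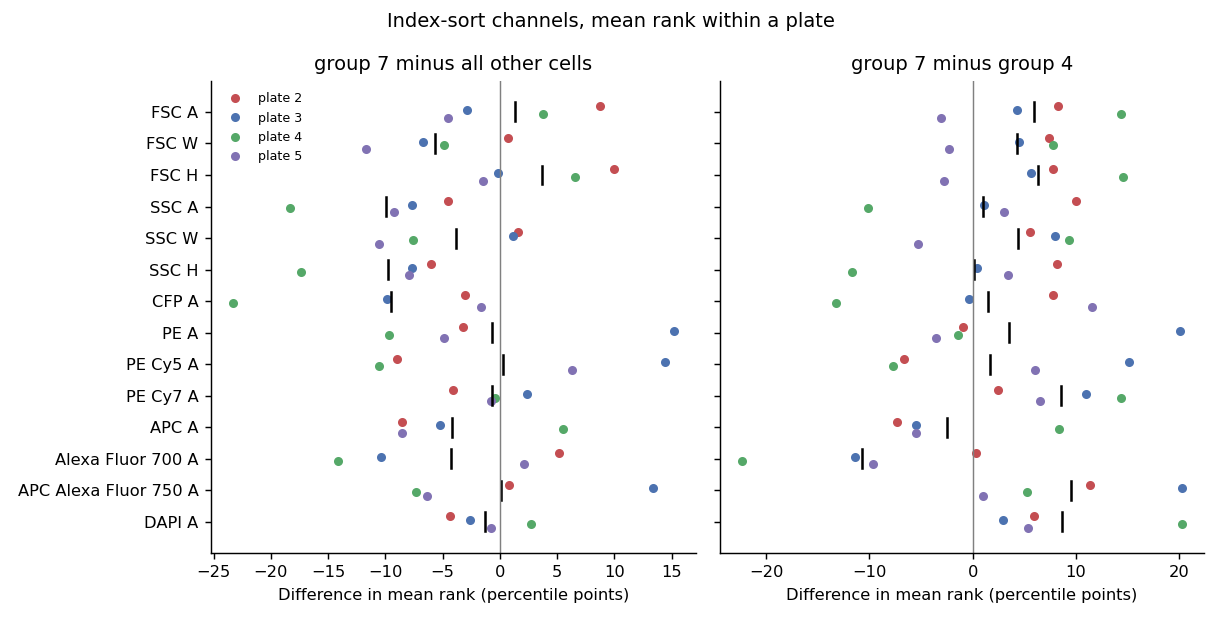
Mean rank of group 7 minus that of all other cells (left) and minus that of group 4 (right) for each index-sort channel, in percentile points; points are sort plates and black lines their means. Side scatter area, side scatter height and CFP lie left of 0 in all 4 plates on the left, and PE-Cy7, APC-Alexa Fluor 750 and DAPI right of 0 in all 4 plates on the right.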

How the data were processed

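The authors deposited raw UMI counts (27297 gene entries by 1536 wells) and an index record of 1430 wells. Tools listed for the series, by the submitters' processing notes, include bcl2fastq 2.15.0.4, STAR and featureCounts, without roles. How UMIs were counted from reads was not given in the sources used here. Each channel of the deposited record is a score in the cytometer's own channel numbers, linear for the 6 scatter channels and log10 for the 8 fluorescence channels, of which PE, PE-Cy5, PE-Cy7 and DAPI hold spreadsheet errors in 14 to 77 wells. All channels were used as ranks, without the wells in error. Bulk and bisulphite samples were not analysed here.

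All recorded cells (511 UMIs or more) were kept and no doublet caller was run, since wells held sorted single cells. UMIs were summed per plate and set and tested with edgeR 4.0.16 in R 4.3.3 (filterByExpr, TMM, plate as block, quasi-likelihood F test, Benjamini-Hochberg threshold 0.05), after a check on simulated data. Expected UMIs are the other cells' share times group 7's total, plate by plate. The deviations of the 2 sets correlated within each plate (r = 0.147 to 0.582 over 2296 genes). Named genes were those called, the 5 of smallest p in a direction with under 5 calls, called list members, and Kit, Ly6a, Slamf1, Cd48, Procr, Cd34, Flt3, Mecom, Hlf and Mki67. Genes called in the added fits are named too, chosen after their values were seen. 1 gene that the rule names is not reported here. Group, lists and tests were chosen with earlier results of these data known. Alternatives were DESeq2 1.42.0, no filter, no block, plates left out, thinned or deeper cells, intermediate CFP only and map 1 kept, and, added after seeing the data, library totals, TMM on well-counted genes and a minimum of 200 UMIs.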

Additional observations from a re-analysis of the deposited data

Results flagged for a closer look

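In plate 4 the difference in side scatter height between group 7 and all other cells was -17.35 rank points, far below the other plates (-6.05 to -7.97). Group 7 holds 7 cells in that plate. Ramp1 stood at 1116 CPM in group 7 of plate 2, far above the 684 to 719 CPM of the other plates, and it was also highest there in the other cells, at 612 CPM. Of 27 sets of 4 plate values examined, 2 had such a value, and chance gives about 1 in 20.

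The 106 wells of the UMI table without an index record, which enter no comparison, held a median of 224 UMIs (15 to 502).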

How the results depend on the processing

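The 5 calls against all other cells became 0 with DESeq2, 0 with cells thinned to 500 UMIs, 0 for the middle 60% of CFP and 0 with no replicate block for plate, 3 with cells of at least 1000 UMIs, 9 with at least 200 UMIs and library totals, and 0 to 4 with a plate left out (0 without plates 2 and 5). The 0 calls against groups 2 to 6 became 2 with TMM from well-counted genes, 2 with at least 200 UMIs, 1 with library totals added to that, 1 with no filter and 0 to 1 with a plate left out. Against group 4 they became 1 with TMM from well-counted genes, 1 with library totals, 12 with at least 200 UMIs, 14 with both, and 0 to 1 with a plate left out. The block moved no other count of calls. The cause of these shifts was not tested.

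Among genes not called, the log2 fold change of the Kit entry against all other cells turned to 0.135 with DESeq2, 0.0133 with TMM from well-counted genes, 0.104 with library totals, 0.104 with at least 200 UMIs, 0.101 with both and 0.134 without the block, and ran from -0.241 to 0.0478 with a plate left out. Kit against groups 2 to 6 was at 0.0077 with DESeq2, 0.0136 with library totals, 0.044 with at least 200 UMIs, 0.0131 with both, 0.0174 thinned and 0.0697 without the block. Procr turned to -0.12 against all other cells for intermediate CFP. Its value against groups 2 to 6 was -0.281 for intermediate CFP, -0.197 with deeper cells, -0.0596 with no filter and -0.0306 to 0.495 with a plate left out. Against group 4 it was -0.347 with deeper cells, -0.109 with no filter and -0.0778 to 0.611 with a plate left out. Cd34 was at 0.0193 against groups 2 to 6 for intermediate CFP. Against group 4 with no filter, Gpx1 was at -0.0062, Rps20 at -0.0344, Rps3 at -0.138 and Rps3a at -0.0542.

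Channel differences that turned were forward scatter area (-0.028), PE-Cy5 (-8.10) and APC (5.38) with deeper cells, and forward scatter width (1.62), side scatter width (0.936), PE (3.14), PE-Cy7 (5.97) and DAPI (5.67) against groups 2 to 6. With a plate left out, forward scatter area ran from -1.21 to 3.21, PE from -5.93 to 2.35, PE-Cy5 from -4.45 to 3.87, PE-Cy7 from -1.77 to 0.386 and APC-Alexa Fluor 750 from -4.33 to 2.58. The S and G2/M share turned to 0.163 against groups 2 to 6.

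Relative to all genes, the S phase median was -0.38 with at least 200 UMIs and library totals, -0.39 with that minimum alone, -0.33 thinned, 0.30 against groups 2 to 6, 0.53 against group 4 and -0.62 to -0.47 with a plate left out. The G2/M median was -0.47 thinned, 0.18 and 0.17 against these sets and -1.36 to -0.66 with a plate left out. The HSC median was -0.0353 with at least 200 UMIs and library totals, -0.25 thinned, -0.24 and -0.45 against these sets and -0.0873 to 0.0556 with a plate left out. The histone median was -1.15 thinned, -0.72 and -0.32 against these sets and -2.27 to -1.53 with a plate left out. At this depth, genes seen in few UMIs could not be compared.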
